A study of Mus musculus with 24 samples.

Results

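The 5 long non-coding RNAs Six3os1, Pax6os1, Raxos1, Vax2os and Sox2ot, whose genes overlap a gene of the eye field or of the optic vesicle, were followed through the optic vesicle (OV) organoid time course. They are 5 of the 49705 gene entries in the deposited table, were picked by symbol with results of these data known, and are set beside the partner genes Six3, Pax6, Rax, Vax2 and Sox2. All 5 were among the 21005 genes tested, those with 10 or more normalized counts in 3 or more libraries. The time course holds 24 polyA RNA libraries in 8 groups of 3 biological replicates. Every group came from 1 mouse embryonic stem cell (mESC) line, Rx-GFP K/I EB5, in which a GFP cassette is knocked into the Rax locus, so that all groups carry this allele and none carries an unmodified locus as a control. Day 0 is the cell state at plating, labelled as untreated, and the other groups are live single cells from aggregates of 4500 plated cells, with Matrigel at 2% from day 1. The labels give GMEM with 1.5% knockout serum replacement as the differentiation medium of every group, whereas the methods of the study name a chemically defined medium for its first organoids, and which was used here is not settled by these sources. Each sample pooled 24 organoids. Cells of days 1, 2 and 3 were not divided by GFP, whereas cells of days 4 and 5 were split into GFP-positive and GFP-negative fractions. The gate follows Rax itself, so the difference in Rax between the fractions is set by the sort. By the methods of the study, the GFP-negative fraction also holds some cells of low GFP, so it is not free of Rax. The step from day 3 to day 4 GFP-negative cells compares unsorted with sorted cells. Time and sorting cannot be told apart in it.

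Many genes for developmental transcription factors lie beside a long non-coding RNA (lncRNA) that is read from the opposite strand or runs through the same locus. Such RNAs can be transcribed from a start close to that of the partner, can share its enhancers, and in other systems have been tied to the control of the partner gene. Rax, Pax6 and Six3 encode homeodomain proteins needed for the eye field, the patch of anterior neural plate that forms both eyes. Vax2 encodes a homeodomain protein of the ventral optic vesicle, and Sox2 encodes an SRY-box factor of pluripotent and neural progenitor cells.

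The label of antisense RNA held for 4 of the 5. By the strand given in the table, Six3os1, Pax6os1, Raxos1 and Vax2os run opposite to their partners, and by the spans of the table each starts inside the partner gene and leaves it across the partner's start. In RefSeq the Six3 start window, chr17:85620584-85620883 on the plus strand, lies beyond the Six3os1 start, so that by this source Six3os1 starts upstream of Six3. Sox2ot runs on the same strand as Sox2 and holds the whole Sox2 gene within its span. In mm10, Six3os1 (ENSMUSG00000093460) covers chr17:85600651-85618398 on the minus strand, and its start lies 4790 bases past the annotated start of Six3. Pax6os1 (ENSMUSG00000086029) covers chr2:105536080-105670330 on the minus strand, a span of 134.3 kb, and starts 1430 bases past the Pax6 start. Vax2os (ENSMUSG00000085794) covers chr6:83692806-83712201 on the minus strand and starts 937 bases past the Vax2 start, within the first intron.

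Raxos1 (ENSMUSG00000097907) is the shortest, at chr18:65937538-65940447 on the plus strand, and starts 2249 bases past the Rax start. Sox2ot (ENSMUSG00000105265) is the longest, with 578.4 kb at chr3:34104270-34682619 on the plus strand, and starts 546135 bases upstream of Sox2. Exons were compared in the GENCODE M21 annotation of the same build, with all transcripts of a gene merged. Raxos1 shares 1604 exonic bases with Rax, which are 63% of its own exonic bases and 27.4% of those of Rax. Six3os1 shares 106 exonic bases with Six3, which are 0.892% of its own. Pax6os1, Vax2os and Sox2ot share 0 exonic bases with their partners. The strandedness of the counting is not given in the sources used here, so reads from shared bases of opposite-strand genes cannot be told apart, and this touches most of Raxos1.

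**Figure D1:**
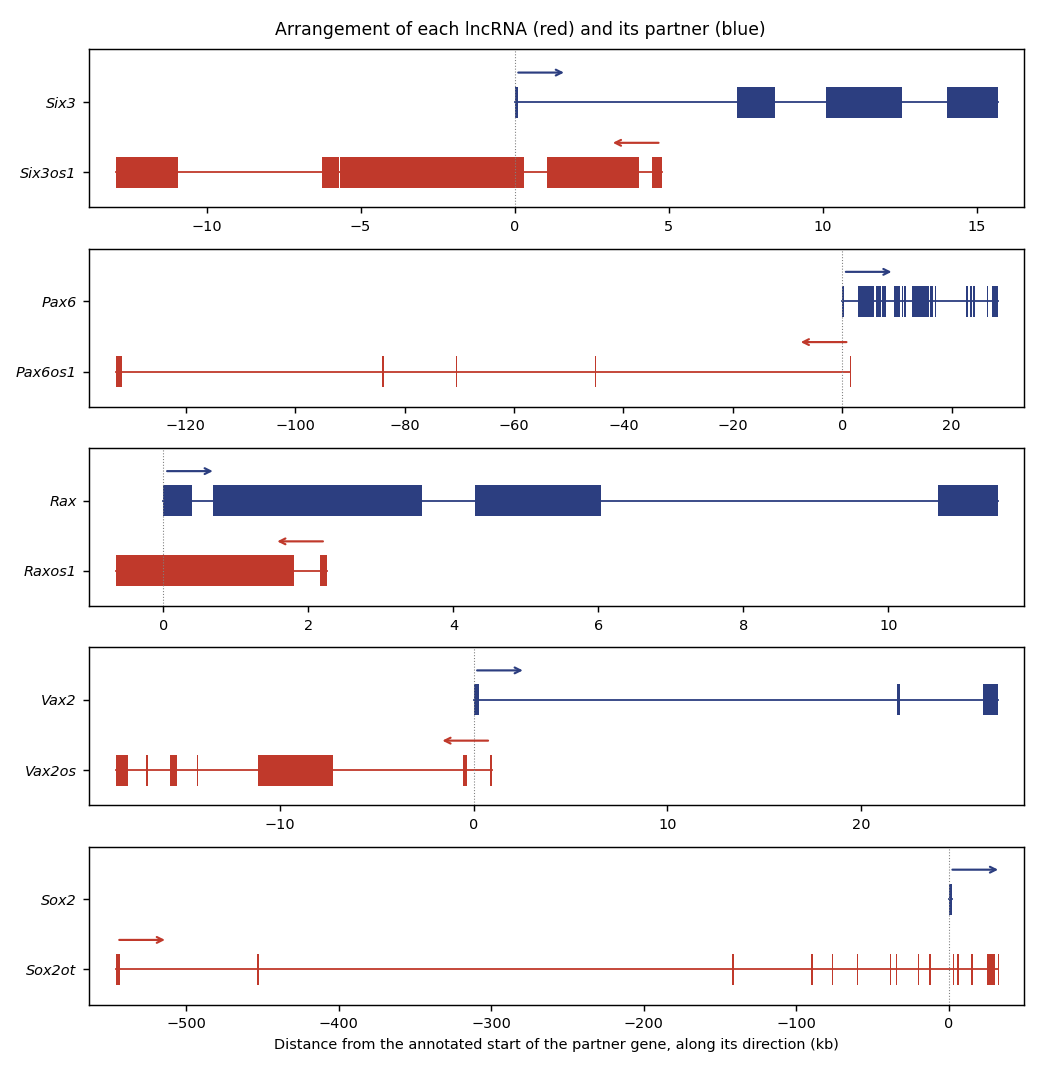
Gene models of the 5 lncRNAs (red) and their partners (blue), with boxes for merged exons, thin lines for the span and arrows for the direction of transcription. The x axis is the distance in kb from the annotated start of the partner along its own direction, with a separate scale in each panel. In these models the opposite-strand lncRNAs begin inside the partner and run back across its start, whereas Sox2ot runs the same way as Sox2.

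The start regions of the 3 opposite-strand lncRNAs that share few or no exonic bases with their partners are shown because they are the places where 2 oppositely directed transcripts arise a few kb apart. Each is a RefSeq window of 300 bases in GRCm38.p6, written 5′ to 3′ along the lncRNA. Capitals mark the first 50 bases of the annotated RNA and, further upstream, any match to the motifs searched. The windows are chr17:85618347-85618646 for Six3os1, chr2:105670281-105670580 for Pax6os1 and chr6:83712152-83712451 for Vax2os, all on the minus strand.
Six3os1: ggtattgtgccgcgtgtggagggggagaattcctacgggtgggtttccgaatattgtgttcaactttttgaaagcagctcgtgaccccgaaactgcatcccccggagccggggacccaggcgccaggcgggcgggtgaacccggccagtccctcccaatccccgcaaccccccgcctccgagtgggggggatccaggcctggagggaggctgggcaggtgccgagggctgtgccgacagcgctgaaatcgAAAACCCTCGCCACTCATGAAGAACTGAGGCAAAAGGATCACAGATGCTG
Pax6os1: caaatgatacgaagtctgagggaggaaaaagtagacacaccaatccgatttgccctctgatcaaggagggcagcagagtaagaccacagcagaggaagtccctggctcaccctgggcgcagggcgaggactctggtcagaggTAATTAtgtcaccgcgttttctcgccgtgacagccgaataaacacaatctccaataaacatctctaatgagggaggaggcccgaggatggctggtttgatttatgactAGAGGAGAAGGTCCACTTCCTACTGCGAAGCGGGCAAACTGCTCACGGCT
Vax2os: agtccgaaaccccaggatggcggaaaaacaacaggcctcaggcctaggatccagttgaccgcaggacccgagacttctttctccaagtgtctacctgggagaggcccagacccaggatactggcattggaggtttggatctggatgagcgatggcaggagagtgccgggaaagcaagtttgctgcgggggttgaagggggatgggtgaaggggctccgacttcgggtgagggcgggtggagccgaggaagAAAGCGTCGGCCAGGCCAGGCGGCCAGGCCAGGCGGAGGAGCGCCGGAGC
Both strands were searched for TAATTA, a core of homeodomain sites, for TAATCC, a core of Otx-type homeodomain sites, for ACAAAG, a core of Sox sites, and for the TATA box TATAAA. The Pax6os1 window held 1 match, TAATTA, beginning at base 143 of the window. Of the 32851 RefSeq promoter windows of this length, 5.29% hold TAATTA, 7.06% TAATCC, 18.7% ACAAAG and 13.6% TATAAA. The windows of Six3os1 and Vax2os held none of the 4 motifs, and neither did a second RefSeq window of Vax2os, chr6:83710776-83711075, whose start lies upstream of Vax2 by the table's coordinates. The CG dinucleotides numbered 20 for Six3os1, 17 and 9 for the first and second window of Vax2os and 13 for Pax6os1, with a median of 7 over all windows. A match in letters is a description and no measured binding site.

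Library totals lay between 39849111 and 51587535 normalized counts, which are kallisto estimates divided by DESeq2 size factors and not divided by gene length. The most frequent low value of each library, taken as an estimate of the worth of 1 read, was 0.809 to 1.398 normalized counts. Rank correlations over genes between replicates lay between 0.979 and 0.993 for 22 pairs, and the 2 pairs with the first day 0 library lay between 0.953 and 0.954. The 5 eye-field markers summed to 45893 to 47745 normalized counts in the GFP-positive and to 8869 to 10833 in the GFP-negative fraction of day 4. The 6 pluripotency markers summed to 1205 to 2510 in day 4 GFP-positive and 13702 to 16412 in day 4 GFP-negative cells. The 6 mesoderm and endoderm markers summed to 317 to 701 and 6614 to 9687, and the 5 midbrain and hindbrain markers to 414 to 582 and 3445 to 4957, in the same order. The 4 endothelial markers summed to 121 to 227 and 895 to 1764, and the 4 neuronal markers to 5565 to 6768 and 4464 to 5138. Of these 5 lists of other cell types, 4 thus summed to more in the GFP-negative gate of day 4 and the neuronal list to less. On day 5 each of the 5 summed to more in the GFP-negative gate without overlap, the neuronal list to 3148 to 3618 against 2667 to 2709. Their part in the differences between gates was not tested. In bulk samples, fewer cells of a type and less RNA per cell cannot be told apart.

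Changes were tested with limma on log2(normalized count + 1) over all 21005 genes, with Benjamini-Hochberg adjustment, and a call required both an adjusted p below 0.001 and a change of over 1.5 on the log2 scale. Values of log2 change below are from this fit, each with its standard error (SE), and understate changes of low values because of the added 1. Pax6os1 passed the filter on low values through the day 5 GFP-positive libraries alone, so its values are given as descriptions with no test. For the other 4 lncRNAs the 6 steps between consecutive groups were tested, 24 member steps in all, of which 3 were called. From day 0 to day 1 the groups did not overlap for 1 of the 5 lncRNAs, beside 20.3% of all genes. In the next 4 steps this held for 2 (45.7%), 2 (40.3%), 3 (35.4% from day 3 to day 4 GFP-negative cells) and 3 of the 5 (33.4% from day 4 to day 5 in GFP-positive cells), and in GFP-negative cells from day 4 to day 5 for 4 of the 5 (34.1%), with Pax6os1 counted in both of the last steps. Only the steps from day 0 to day 1 and from day 1 to day 2 have no library of the contrasts by which the members came to attention. The contrasts of day 3 with day 4 GFP-positive cells and of the 2 gates on days 4 and 5 are given as descriptions with no test, since the choice of members used them.

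With the settings above, Six3os1 was the first of the 4 tested lncRNAs to be called. With 5 added in place of 1, limma called Vax2os earlier, from day 0 to day 1 (adjusted p = 0.000151). On day 0 its values were 10.0, 13.7 and 14.5 normalized counts, on day 1 they were 33.7, 3.97 and 18.5, and on day 2 they were 37.0, 30.4 and 20.5. On day 3 they were 326, 468 and 366. The groups of days 0, 1 and 2 overlapped with their neighbours, and every day 3 library stood above every earlier one. From day 2 to day 3 the log2 change was 3.70 (SE 0.42, adjusted p = 5.53e-06). It was the 1 call among the 4 tested lncRNAs in this step, where 1% of all genes were called. Six3, which encodes a homeodomain repressor of the anterior neural plate, rose by 5.34 in the same step (SE 0.25, adjusted p = 3.46e-11), from 35.9, 17.1 and 16.0 to 709, 1198 and 889. The log2 ratio of Six3os1 to Six3 fell by 1.64 (SE 0.35, adjusted p = 0.0115 over the 140 pairs tested), which did not pass the threshold.

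Six3os1 then followed the GFP gate in level. Day 4 GFP-negative cells held 1432, 1500.4 and 914 normalized counts and day 4 GFP-positive cells 6719.9, 7461 and 7618. On day 5 the GFP-negative libraries held 1915, 1916 and 1992 and the GFP-positive libraries 14619, 13929.5 and 14355.5. No library of 1 of these 4 groups overlapped with another, and the order from low to high was day 3, day 4 GFP-negative, day 5 GFP-negative, day 4 GFP-positive and day 5 GFP-positive. The log2 change from day 3 to day 4 GFP-negative cells was 1.71 (SE 0.42, adjusted p = 0.00545). The changes from day 4 to day 5 were 0.98 in GFP-positive (SE 0.42, adjusted p = 0.174) and 0.63 in GFP-negative cells (SE 0.42, adjusted p = 0.405), and none of the 3 was called. Six3 had log2 changes of the opposite sign in both gates, with -0.52 in GFP-positive (SE 0.25, adjusted p = 0.247) and -1.37 in GFP-negative cells (SE 0.25, adjusted p = 0.000831, below the size threshold).

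The ratio of the 2 RNAs therefore moved in favour of the lncRNA in both gates. The log2 ratio of Six3os1 to Six3 in GFP-positive cells lay between -0.89 and -0.72 on day 4 and between 0.61 and 0.72 on day 5. In GFP-negative cells it lay between -1.64 and -1.46 on day 4 and between 0.30 and 0.51 on day 5. The 2 days did not overlap in either gate. The change of the log2 ratio was 1.50 in GFP-positive (SE 0.35, adjusted p = 0.0116) and 2.00 in GFP-negative cells (SE 0.35, adjusted p = 0.00135), both short of the threshold of 0.001. Per kb of merged exon, Six3os1 stood at 71.8%, 112% and 58.3% of the Six3 level on days 0, 1 and 2, when both were low. It stood at 19.0% on day 3, at 26.0% and 61.4% in day 4 GFP-positive and day 5 GFP-negative cells, and at 73.3% in day 5 GFP-positive cells. The lowest share was 15.4%, in day 4 GFP-negative cells, and the shares of day 5 lay within the range of days 0 to 2. Merged exons include those of all 13 annotated Six3os1 transcripts, so a per-kb level understates an RNA of which 1 short transcript is made. Another opposite-strand RNA of the locus, Gm28528, which overlaps Six3, had group means of 10.8 on day 3, 131 and 101 in GFP-positive cells of days 4 and 5, and 47.4 and 18.7 in the GFP-negative cells. Six2, a related homeobox gene within 100000 bases, had the reverse order between gates, with means of 24.2 and 18.3 in GFP-positive and 199 and 123 in GFP-negative cells.

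**Figure D2:**
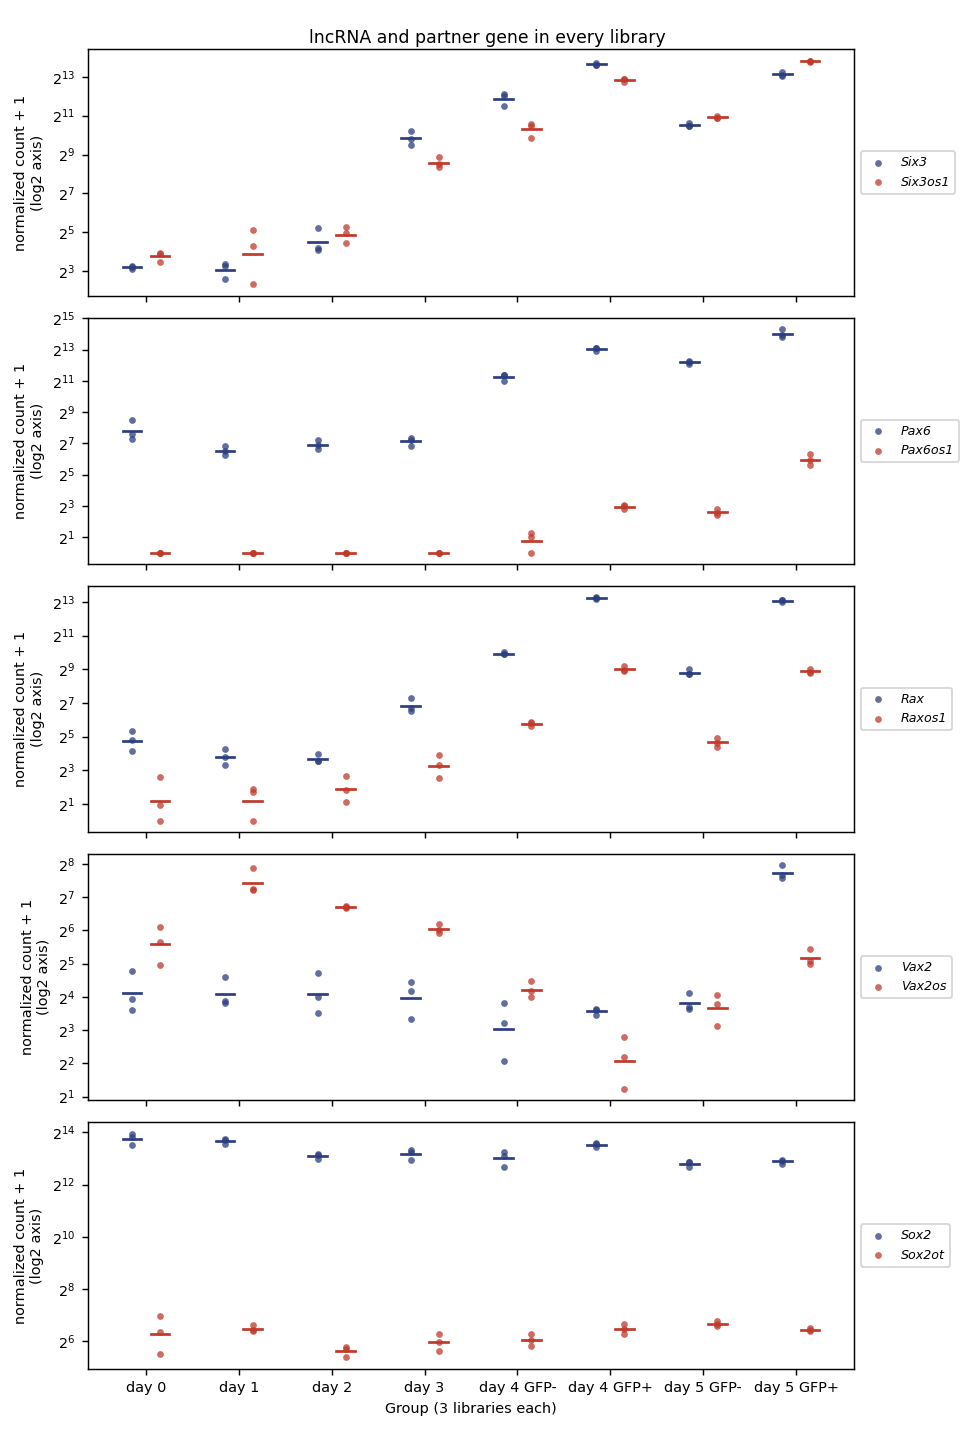
Normalized count + 1 on a log2 axis for each lncRNA (red) and its partner (blue) in all 24 libraries. Points are libraries, bars the mean on the log scale of the 3 replicates of a group, and each panel has its own range. Six3os1 climbs with Six3 to day 4 and has higher values on day 5 where Six3 has lower ones, Pax6os1 leaves 0 on day 4, and Raxos1 stays a fixed distance below Rax in the sorted groups.

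Pax6os1 was the last of the 5 to be detected. It was listed at 0 in all 12 libraries of days 0 to 3, whereas Pax6, which encodes a paired-box and homeodomain factor of eye and forebrain, had group means of 92.7 to 239 normalized counts there. In day 4 GFP-negative cells the values of Pax6os1 were 0, 1.42 and 1.04, which is about the worth of 1 read. Day 4 GFP-positive cells held 6.04, 7.28 and 6.83, and day 5 GFP-negative cells 5.96, 4.92 and 4.29. Day 5 GFP-positive cells held 47.9, 59.5 and 77.4. The highest group stood clear of all others, and the day 4 GFP-positive and day 5 GFP-negative libraries were close to each other at a few reads each.

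From day 4 to day 5 in GFP-positive cells the log2 difference of Pax6os1 was 3.00. Pax6 had a log2 change of 0.97 in the same step (SE 0.24, adjusted p = 0.0104), from 8939, 7774 and 8838 to 15803, 20619 and 14217. The log2 ratio of Pax6os1 to Pax6 differed by 2.03. In GFP-negative cells the log2 difference of Pax6os1 was 1.82, and at these few reads it lay anywhere between 0.79 and 2.27 over the alternatives. In this GFP-positive step 1.49% of all genes were called, and the 1 call among the other 4 lncRNAs was Vax2os. Both groups of the step also enter the contrasts by which members were chosen, so the step is not independent of the choice. In a fit of the 6 libraries compared alone Vax2os did not pass, with an adjusted p of 0.00957.

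Of the 24 pair steps of the other 4 lncRNAs 0 were called by limma, with 8 at an unadjusted p under 0.05. From day 3 to day 4 GFP-negative cells 2.86% of the 140 pairs were called. In the steps from day 0 to day 1 and from day 4 to day 5 in GFP-positive cells 0.714% of pairs were called, and in the others 0%. From day 3 to day 4 GFP-negative cells the log2 ratio of Pax6os1 to Pax6 differed by -3.32. Pax6os1 was at or near 0 in both groups, and Pax6 itself rose by 4.09 (SE 0.24, adjusted p = 2.02e-10) from 114, 162 and 150 to 2029, 2610 and 2627, so the lower ratio is the rise of Pax6. Per kb, Pax6os1 stood at 0.245% of Pax6 in day 4 GFP-negative cells, at 0.57% in day 4 GFP-positive, at 0.78% in day 5 GFP-negative and at 2.64% in day 5 GFP-positive cells. Paupar, a lncRNA that lies within the Pax6os1 span on the same strand, had group means of 0.306 to 3.45 normalized counts on days 0 to 3. In sorted cells its means were 12.6 and 21.2 on day 4 and 13.1 and 37.2 on day 5, GFP-negative before GFP-positive. Paupar thus had values above 0 in groups where Pax6os1 was listed at 0.

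Raxos1 had the same order of groups as Rax wherever it stood clear of 0. Its values were at most 5.35 normalized counts in the 9 libraries of days 0 to 2 and 4.88, 9.10 and 14.2 on day 3. Day 4 GFP-negative cells held 57.6, 54.4 and 49.3 and day 5 GFP-negative cells 29.8, 24.1 and 19.7. GFP-positive cells held 594, 500.2 and 468 on day 4 and 461, 525 and 441 on day 5. Day 3 overlapped with day 2, the GFP-positive groups of both days overlapped with each other, and the other sorted groups stood apart. From day 2 to day 3 the log2 change was 1.40 (SE 0.55, adjusted p = 0.0945), from day 3 to day 4 GFP-negative cells 2.50 (SE 0.55, adjusted p = 0.00242), and from day 4 to day 5 in GFP-negative cells -1.12 (SE 0.55, adjusted p = 0.23). None was called. Rax, a homeodomain factor that marks retinal progenitors, rose in the first of these by 3.13 (SE 0.25, adjusted p = 1.04e-07) and in the second by 3.11 (SE 0.25, adjusted p = 2.2e-08).

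The ratio of Raxos1 to Rax hardly varied among the sorted groups. Its mean log2 value was -4.20 and -4.18 in GFP-positive cells of days 4 and 5 and -4.16 and -4.14 in GFP-negative cells, with SDs of 0.11 to 0.21 (n = 3). The change from day 4 to day 5 was 0.03 in GFP-positive (SE 0.59, adjusted p = 0.994) and 0.01 in GFP-negative cells (SE 0.59, adjusted p = 0.986). Per kb, Raxos1 stood at 12.5%, 12.7%, 12.7% and 12.6% of Rax in day 4 GFP-positive, day 5 GFP-positive, day 4 GFP-negative and day 5 GFP-negative cells, while the level of Rax itself spanned 447 to 9559 normalized counts. With 63% of the exonic bases of Raxos1 shared with Rax, a separate RNA and reads of Rax cannot be told apart in these values. The SE of the pair test is pooled over all groups, and the ratio had SDs of 1.01 to 1.11 on days 0 to 3, where Raxos1 rested on a few reads. A near gene, Lman1, had group means of 18177 and 14936 in GFP-positive and 7369 and 6344 in GFP-negative cells of days 4 and 5.

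**Figure D3:**
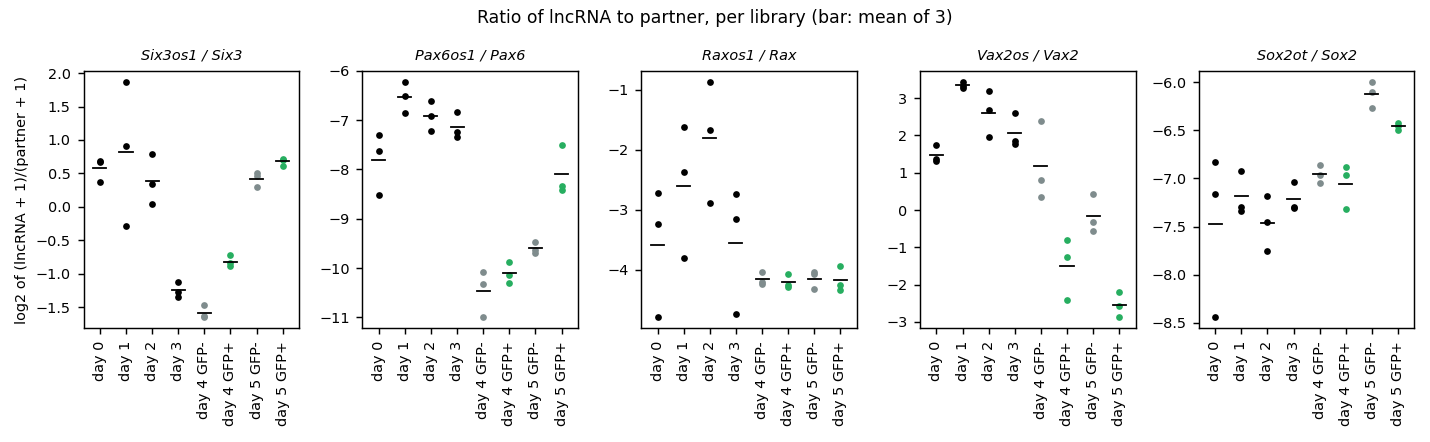
Log2 of (lncRNA + 1)/(partner + 1) per library for the 5 pairs, in normalized counts not divided by length. Points are libraries (black, unsorted; grey, GFP-negative; green, GFP-positive) and bars the mean of 3, with a separate range for each panel. The Six3os1 ratio steps up from day 4 to day 5 in both gates, and the Raxos1 ratio stays between -4.34 and -3.94 in all 12 sorted libraries.

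Vax2os was highest on day 1. It was present in the starting cells, with 30.2, 68.3 and 49.6 normalized counts on day 0, and stood at 146, 233 and 150.2 on day 1. It then held 101, 102 and 104 on day 2 and 72.5, 59.8 and 63.3 on day 3. Days 0 and 1 did not overlap, and days 2 and 3 each lay wholly below the day before. Vax2 meanwhile had group means between 15.5 and 17.3 on days 0 to 3, and its groups overlapped throughout. Of the 6 steps of the ratio of Vax2os to Vax2, 0 were called by limma, with 3 at an unadjusted p under 0.05. The lowest adjusted p among them was 0.0181, for a change of 1.87 from day 0 to day 1 (SE 0.47). The log2 change of Vax2os from day 0 to day 1 was 1.86 (SE 0.35, adjusted p = 0.0014), which missed the threshold of 0.001. In that step 0 of the 4 lncRNAs other than Pax6os1 were called by limma, where 0.738% of all genes were. Vax2os was the 1 member with an unadjusted p under 0.05. The changes of the next steps were -0.74 (SE 0.35, adjusted p = 0.17) and -0.65 (SE 0.35, adjusted p = 0.238). From day 1 to day 2, 0 of these 4 were called by limma and 1.47% of all genes, with 3 members at an unadjusted p under 0.05.

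On day 4 Vax2os was low in both gates and lowest in GFP-positive cells. The GFP-negative libraries held 15.1, 21.1 and 16.9 normalized counts and the GFP-positive libraries 1.34, 3.58 and 5.94. From day 3 to day 4 GFP-negative cells it fell by 1.83 on the log2 scale (SE 0.35, adjusted p = 0.000735). This was the 1 call among the 4 tested lncRNAs in this step, where 2.88% of all genes were called. The adjusted p lay between 0.00211 and 0.00479 when any 1 of the 6 libraries was left out, so the call was lost without any of them. The pluripotency markers Pou5f1, Nanog, Zfp42, Esrrb, Klf4 and Dppa5a summed to means of 154299, 118725, 68065 and 40484 on days 0, 1, 2 and 3. Their sum had means of 15255 in day 4 GFP-negative and 1714 in day 4 GFP-positive cells. From day 3 to day 4 GFP-negative cells the mesoderm and endoderm sum went from a mean of 3499 to 8450. In this step the midbrain and hindbrain sum went from 734 to 4287, the endothelial from 771 to 1341 and the neuronal from 5179 to 4825. The part of these cell types in the fall of Vax2os was not tested.

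On day 5 the direction between gates turned. GFP-positive cells held 42.6, 30.7 and 33.2 normalized counts of Vax2os and GFP-negative cells 12.9, 7.72 and 15.6. The GFP-positive libraries lay wholly below the GFP-negative ones on day 4 and wholly above them on day 5. From day 4 to day 5 in GFP-positive cells Vax2os rose by 3.10 (SE 0.35, adjusted p = 3.75e-06), whereas in GFP-negative cells its change was -0.55 (SE 0.35, adjusted p = 0.385). Vax2 rose by 4.16 in GFP-positive cells (SE 0.42, adjusted p = 9.67e-07), from 11.4, 10.1 and 11.2 to 200.5, 189 and 248, and had a change of 0.79 in GFP-negative cells (SE 0.42, adjusted p = 0.281). The log2 ratio of Vax2os to Vax2 changed by -1.05 in GFP-positive cells (SE 0.47, adjusted p = 0.336). In the same cells from day 4 to day 5 the endothelial sum went from a mean of 177 to 794 and the midbrain and hindbrain sum from 505 to 755. The neuronal sum went from 6218 to 2691, the pluripotency sum from 1714 to 487 and the mesoderm and endoderm sum from 538 to 348. Their part in the rise of Vax2os was not tested. Per kb, Vax2os stood at 245% of Vax2 on day 1 and at 3.84% in day 5 GFP-positive cells, so the late rise of the lncRNA came at a level far under that of the coding gene. The next gene downstream of Vax2, Atp6v1b1, which encodes a proton pump subunit, had a mean of 33.0 in day 5 GFP-positive cells and at most 2.93 in every other group.

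Sox2ot was the steadiest of the 5, and no step was called. Its values were 125, 44.7 and 80.6 normalized counts on day 0, 82.1, 86.0 and 97.9 on day 1, 40.8, 51.3 and 54.2 on day 2, and 48.1, 77.6 and 61.1 on day 3. In GFP-negative cells they were 75.8, 65.3 and 55.6 on day 4 and 100.1, 96.2 and 108 on day 5. In GFP-positive cells they were 76.4, 100.7 and 87.1 on day 4 and 89.1, 82.1 and 84.3 on day 5. The day 0 libraries covered most of the range of all groups, and in the order of means every group overlapped with its neighbour. The highest group mean was 2.08 times the lowest. The day 1 to day 2 change was -0.86 (SE 0.27, adjusted p = 0.0311) without overlap, and in GFP-negative cells the change from day 4 to day 5 was 0.63 (SE 0.27, adjusted p = 0.151). In that last step 0 of the 4 lncRNAs other than Pax6os1 were called by limma, where 1.27% of all genes were. Of these 4, Sox2ot had an unadjusted p under 0.05.

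Sox2 had group means between 7167 and 13971 normalized counts. It had log2 changes of -0.58 from day 1 to day 2 (SE 0.14, adjusted p = 0.00547) and of -0.64 from day 4 to day 5 in GFP-positive cells (SE 0.14, adjusted p = 0.00344). Both changes missed the threshold of size and that of the adjusted p. The log2 ratio of Sox2ot to Sox2 changed from day 4 to day 5 by 0.60 in GFP-positive (SE 0.32, adjusted p = 0.445) and by 0.83 in GFP-negative cells (SE 0.32, adjusted p = 0.187). Per kb, Sox2ot stood between 0.0991% and 0.251% of Sox2 in the 8 groups. Reads of Sox2 are thus far more frequent per kb than those of the longer transcript that surrounds it. Gm38509, a lincRNA downstream of the Sox2ot span, had means of 120 on day 1 and 36.2 on day 2, and of 0.91 in GFP-positive cells of day 5.

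Across the contrasts by which the members came to attention, the 5 split into 3 RNAs higher with GFP, 1 that changed sides and 1 near 0. From day 3 to day 4 GFP-positive cells the log2 differences were 4.24 for Six3os1, 5.75 for Raxos1, -3.97 for Vax2os and 0.51 for Sox2ot. With a pseudocount of 5 they were 5.23 for Raxos1 and -3.06 for Vax2os. Pax6os1 went from libraries listed at 0 to between 6.04 and 7.28 normalized counts. Past 1.5 and without overlap, 3 of the 5 were higher and 1 lower, where 4.74% and 10.2% of all genes were. Between gates on day 4, positive minus negative, the log2 differences were 2.53 for Six3os1, 2.18 for Pax6os1, 3.25 for Raxos1, -2.14 for Vax2os and 0.42 for Sox2ot. With a pseudocount of 5 they were 1.02 for Pax6os1 and -1.42 for Vax2os. On day 5 the differences were 2.88, 3.35, 4.24, 1.52 and -0.25 for Six3os1, Pax6os1, Raxos1, Vax2os and Sox2ot. With a pseudocount of 5 they were 2.71 for Pax6os1 and 1.26 for Vax2os. Past 1.5 and without overlap between groups, 3 were higher on day 4 and 4 on day 5, where 1% and 0.809% of all genes were. Each count of higher RNAs in these contrasts holds Pax6os1, which passed the filter through the day 5 GFP-positive libraries alone. Each also holds Raxos1, whose values cannot be told apart from reads of Rax, the gene of the gate. As the members were chosen by these contrasts, the counts are descriptions and no measure of enrichment. Of the 5, 1 was lower on day 4 and 0 on day 5, where 6.29% and 7.62% of all genes were. For the partners the gate differences on day 5 were 2.62 for Six3, 1.83 for Pax6, 4.27 for Rax, 3.91 for Vax2 and 0.08 for Sox2.

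Each lncRNA was also ranked against all genes with a highest group mean of at least 100 by the Pearson correlation of the 8 group means of log2(normalized count + 1). These are descriptions over groups that share libraries' depth and a time trend. For Raxos1, Rax ranked 6 of 14491 with r = 0.987, behind genes led by Rbm4b (r = 0.995), Tcf7l2 (r = 0.99) and Dyrk1a (r = 0.988), which spanned 0.92, 2.05 and 0.53 on the log2 scale beside 7.85 for Raxos1. For Six3os1, Six3 ranked 185 with r = 0.979, behind Dhdds, Gm4724 and Hmgn3 at r of 0.995 to 0.994. For Pax6os1, Pax6 ranked 421 of 14492 with r = 0.888, and the first gene was Six6, an eye-field homeobox gene, with r = 0.991. Six6 spanned 7.88 on the log2 scale, beside 5.94 for Pax6os1, whose lower end is set by libraries listed at 0, whereas the next 2, Dsn1 and Pigx, spanned 0.57 and 0.64. For Vax2os, Vax2 ranked 6790 with r = 0.175, and the first genes were Gtf3a, Zcchc9 and Mettl7a1. For Sox2ot, Sox2 ranked 5982 with r = 0.104, and the first were Gm20559, 1700030J22Rik and Car9. By the Spearman correlation over the 24 libraries the partners stood at 0.942, 0.91, 0.92, 0.404 and 0.0278 in the order Six3os1, Pax6os1, Raxos1, Vax2os and Sox2ot. Their ranks by this measure were 317, 30, 108, 5371 and 6774. Pax6os1 was listed at 0 in 13 of the 24 libraries. These ties cap its Spearman correlation, which was at most 0.916 over the ranked genes (Tmem18). The rank of 30 for Pax6 can therefore not be compared with the rank of 108 for Rax, whose correlation was larger.

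The other opposite-strand and overlapping RNAs of the table, found by symbol, number 299, of which 141 passed the filter. Of these 141, 11 are annotated as protein-coding, so the list is not one of non-coding RNAs alone. They were called at shares of 0% to 2.84% per step, beside 0.738% to 2.88% of all genes, with 9 calls higher and 1 lower over the 6 steps. Those called were Pcsk2os1, Dgkeos, Evx1os, Zeb2os, Emx2os, Gad1os, Igf2os, Dmrta2os and Foxd2os. Evx1os, opposite to a primitive streak gene, rose by 4.28 from day 2 to day 3 (SE 0.70, adjusted p = 0.00028), and its partner Evx1 had a log2 change of 2.90. Emx2os, opposite to a forebrain homeobox gene, rose by 3.55 from day 3 to day 4 GFP-negative cells (SE 0.45, adjusted p = 7.18e-06), with a change of 5.65 for Emx2. In 8 of the 10 calls the partner was called in the same direction. Across 135 of these pairs the changes of both genes had Pearson correlations of 0.31 to 0.69 per step, a description over pairs that share libraries. In the step from day 4 to day 5 in GFP-positive cells, in which Vax2os was called, 0 of the 141 other RNAs were called by limma, with 19 at an unadjusted p under 0.05.

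**Figure D4:**
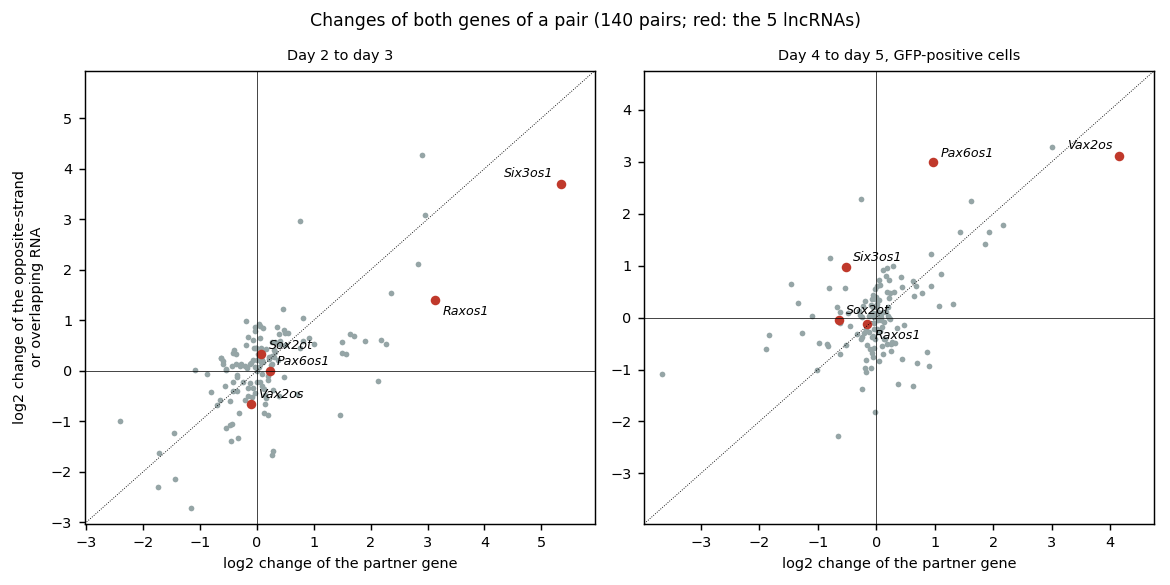
Log2 change of the partner (x) and of the opposite-strand or overlapping RNA (y) for 140 pairs in 2 steps, with the 5 lncRNAs in red and the dotted line marking equal change. Six3os1 lies below the line from day 2 to day 3 (3.70 against 5.34) and above it from day 4 to day 5 in GFP-positive cells (0.98 against -0.52), where Pax6os1 also lies above it (3.00 against 0.97).

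The list of 16 eye-field and optic vesicle genes was chosen with results of these data known, so its counts are descriptions. All 16 passed the filter. From day 2 to day 3, 5 were called higher (Rax, Six3, Lhx2, Fezf1 and Hesx1), beside 1% of all genes called either way. From day 3 to day 4 GFP-negative cells 6 were called higher (Rax, Pax6, Six3, Lhx2, Nr2e1 and Fezf1), beside 2.88% of all genes. From day 4 to day 5 in GFP-positive cells 6 were higher (Six6, Nr2e1, Tbx2, Vax2, Mitf and Aldh1a3) and 1 lower (Hesx1), beside 1.49% of all genes. In the steps to days 1 and 2, 0 were called by limma, beside 0.738% and 1.47% of all genes, with 4 and 6 at an unadjusted p under 0.05. In GFP-negative cells from day 4 to day 5, Nr2e1 was higher and Hesx1 lower, beside 1.27% of all genes. Another 3 RNAs of the table carry the names of genes in that list. Otx2os1 lay between 10.7 and 24.0 normalized counts on day 0 and between 44.4 and 57.3 in day 5 GFP-positive cells. Tbx3os2 lay between 18.7 and 20.2 and between 0.915 and 3.00 in the same order. Tbx3os1 lay between 13.6 and 50.5 and between 2.47 and 25.05, so that its groups overlapped. Of their 18 steps 0 were called by limma, and 1 had an unadjusted p under 0.05, the lower value of Tbx3os2 on day 1 than on day 0 (log2 change -1.89, SE 0.60, adjusted p = 0.0508).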

How the data were processed

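RNA was measured in 24 libraries prepared with a TruSeq kit from polyA RNA. The authors pseudo-aligned reads with kallisto 0.43.1 to mouse coding and non-coding RNA (mm10) and deposited a normalized signal per gene, the estimated counts divided by DESeq2 size factors. The version of DESeq2 and the strandedness are not given in the sources used here. The deposited table also holds the authors' own gene classes, which were not used. Whole reads could not be recovered, so no count model was run, and an estimated 36900955 to 54594529 reads per library set the precision of low values. Groups and replicate numbers came from the sample labels.

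Values were transformed as log2(value + 1) and fitted with limma 3.58.1 in R 4.3.3 for 21005 genes (10 or more in 3 or more libraries). All 24 libraries entered 1 fit with an intensity trend, and p was adjusted by Benjamini-Hochberg per contrast. Pairs were fitted likewise on log2((lncRNA + 1)/(partner + 1)) over 140 pairs. The thresholds for a call, 0.001 for the adjusted p and 1.5 for the log2 change, are those of the study. The scripts were tested on simulated data. Python 3.11.15 with pandas 2.3.3 and matplotlib 3.10.9 was used for the summaries and plots. Of the table's identifiers, 49180 are in GENCODE M21, of which 48864 match in both coordinates. Promoter windows came from RefSeq (GRCm38.p6), and no window was used for Raxos1 or Sox2ot.

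The members, their partners, the gene lists and the tests were chosen with earlier results of these data known. Named beside them are, for each lncRNA, the 3 genes most like it, other entries within 100000 bases, and other opposite-strand RNAs that were called (at most 5 per direction) or whose partner is in the list of 16 eye-field and optic vesicle genes, from which 1 further gene is not reported here. As alternatives, the pseudocount was set to 0.5 or 5, the filter was dropped or raised to 50, and the others were quantile normalization, no trend, a replicate block, a fit of the compared libraries, an adjusted p under 0.05, leaving out each library, and, chosen after seeing the data, a fit without the first day 0 library.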

Additional observations from a re-analysis of the deposited data

Results flagged for a closer look

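Vax2os differed between gates in opposite directions on the 2 days. The difference of GFP-positive minus GFP-negative cells was -2.14 on the log2 scale on day 4 and 1.52 on day 5. With a pseudocount of 5 it was -1.42 and 1.26. On each day every GFP-positive library lay on the same side of every GFP-negative one. The change between days was not tested, since both contrasts were used in choosing the RNAs. Sox2ot met the same condition with small differences, 0.42 on day 4 and -0.25 on day 5, and the latter turned to 0.17 under quantile normalization.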

How the results depend on the processing

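Counts of called lncRNAs were 0, 0 and 1 for the steps to days 1, 2 and 3, 1 from day 3 to day 4 GFP-negative cells, and 2 and 0 from day 4 to day 5 in GFP-positive and GFP-negative cells. The count of 1 from day 2 to day 3 was the same in every alternative. From day 3 to day 4 GFP-negative cells the count of 1 (Vax2os) became 0 with a pseudocount of 0.5, without a filter, and in the fit of the compared libraries, 3 with a pseudocount of 5 or an adjusted p under 0.05, and 2 without the first day 0 library. Leaving out 1 library gave 0 each time here, and 0 to 1 from day 0 to day 1, where 1 came without the second day 0 library. The count from day 0 to day 1 was 1 with a pseudocount of 5, with quantile normalization and at an adjusted p under 0.05, and that from day 1 to day 2 was 1 at the last of these. In GFP-positive cells from day 4 to day 5 the count of 2 (Vax2os, and Pax6os1, which passed the filter through the day 5 GFP-positive libraries alone) became 1 with the filter of 50, which removes Pax6os1, and 0 in the fit of the compared libraries. In GFP-negative cells the count of 0 became 1 without a trend and at an adjusted p under 0.05, each time Pax6os1 under the same limit, so that neither is a tested call.

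Pairs called were 0 except for 1 from day 3 to day 4 GFP-negative cells, Pax6os1 with Pax6 under the same limit, which became 0 with the filter of 50 and in the fit of the compared libraries. At an adjusted p under 0.05 the pair counts were 2 from day 0 to day 1, 1 from day 2 to day 3, and 2 and 1 from day 4 to day 5 in GFP-positive and GFP-negative cells. The pair of Pax6os1 and Pax6, under the same limit, is 1 of the 2 in each count of 2, and from day 0 to day 1, where Pax6os1 was listed at 0, its ratio moves with Pax6 alone. In GFP-positive cells the same pair was the 1 past the thresholds without a trend and without the first day 0 library, and in GFP-negative cells 1 pair, Six3os1 with Six3, was called with a pseudocount of 5 and with the filter of 50. Beyond the removal of genes and samples, the cause was not tested.

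Changes of the Raxos1 to Rax ratio near 0 turned sign, to -0.00275 in GFP-negative cells with a pseudocount of 0.5 and to -0.0653 in GFP-positive cells with quantile normalization, and leaving out 1 library gave -0.0379 to 0.0988 and -0.0937 to 0.105. The Sox2ot gate difference on day 5 turned from -0.25 to 0.17 with quantile normalization. Of 557 recomputed single values 504 kept direction and side of the threshold or moved by less than the replicate spread, 13 fell below and 21 rose above the threshold, 9 moved further and 10 turned sign.

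Deviations from the group means had correlations between libraries of the same number of -0.284 to 0.401 over all groups. In the tested steps, which compare different days, 3 of 18 were over 0.1. The gates of a day may have been sorted from the same organoids, and there the same-number correlations were -0.108 to 0.147. The labels do not tie the numbers to a shared pool, so the numbers were not taken to pair the samples. With the replicate number as a block, 0 lncRNAs were called from day 3 to day 4 GFP-negative cells in place of 1, and the block moved no other count by over 1.5 times. Depth limits Pax6os1 on days 0 to 4 and Raxos1 and Vax2os at their lowest, where single reads weigh most.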
